A study of Mus musculus with 8 samples.

Results

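The genes described here are 10 markers that grade mouse hematopoietic stem cells by surface protein or that stem cells share with blood vessel lining: Kit, Ly6a, Ly6e, Cd34, Procr, Esam, Tek, Robo4, Fgd5 and Cd27. They were taken by symbol from a table of 52224 genes, and all 10 were present and passed the filter on low values. The series measured RNA from bone marrow stem cells of DekTg mice and of DekCon mice, with 4 libraries of each genotype. Both groups were sorted through the same gate, CD48-negative and CD150-positive cells of the LSK fraction, and no treatment other than the genotype is named. The labels give the genotypes by these names only, and do not state the promoter behind DekTg, the control allele, the age of the mice or whether a library came from 1 mouse or from several. The p-values below thus rest on the spread between libraries, and that spread may be technical. The comparison asks whether these markers differ between DekTg and DekCon stem cells.

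LSK cells carry no mature lineage antigens and display Sca-1, the product of Ly6a, and the receptor KIT. Blood stem cells arise in the embryo from hemogenic endothelium, and in the adult they still express several proteins first known from endothelial cells, among them the angiopoietin receptor TIE2 (Tek), the protein C receptor EPCR (Procr), ESAM and ROBO4. CD34 and CD27 are used to separate stem cells with long-lasting activity from their more committed progeny, and in adult mice the cells with the most lasting activity display little CD34.

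Values are normalized read counts, that is, reads per gene divided by 1 size factor per library. The libraries held 2642858 to 3591212 reads in DekTg and 2525884 to 4101132 reads in DekCon, and the 10 markers were covered by between 14 reads (Procr) and 2914 reads (Cd34) per library. Dek, the altered gene, was listed at 2700, 2296, 1862 and 2710 in DekTg libraries 1 to 4, against 477, 539, 632 and 395 in DekCon libraries 1 to 4. Its DekTg values are not whole numbers of reads, so the size of that difference is not a measured one, while all values of the 10 markers are whole reads. Kit, Ly6a and Slamf1, whose proteins define the gate, were read in all 8 libraries. DekCon library 2 stood apart the most. Its median correlation with the other 7 libraries, on log2 values across genes, was 0.910, against 0.920 to 0.952 for those 7 (each with its own other 7). DekTg library 2 came next, at 0.920. The log2 fold changes of the markers are given with and without DekCon library 2, as are those of list genes named by rule that it moved by 1.5 times or more. Libraries 1 and 4 of each group were closer to each other than any other pair of their group, but differed by more than counting error, and were kept as separate samples.

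None of the 10 markers passed the test between DekTg and DekCon. The test was limma on log2(value + 1), with Benjamini-Hochberg adjustment over 37414 genes and a threshold of 0.05, and it called 13 genes in all, or 0.0347% of those tested, 10 of them higher in DekTg (0.0267%) and 3 lower (0.00802%). With the 6 genes that hold values other than whole reads left out, limma called 8 genes and 0 of the 10 markers. EdgeR and DESeq2 on the recovered reads called 0 of the 10 as well. At an unadjusted limma p under 0.05 stood 1 of the 10, Fgd5, where 6.93% of all genes did. The groups overlapped for all 10, and failed to overlap for 3.97% of all genes. The log2 fold change, DekTg minus DekCon, was above 0 for 8 of the 10 and below 0 for Esam and Tek, with 50.6% of all genes above 0. The median over the 10 was 0.26, beside 0.0057 over all genes, and without DekCon library 2 it was 0.08.

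**Figure D1:**
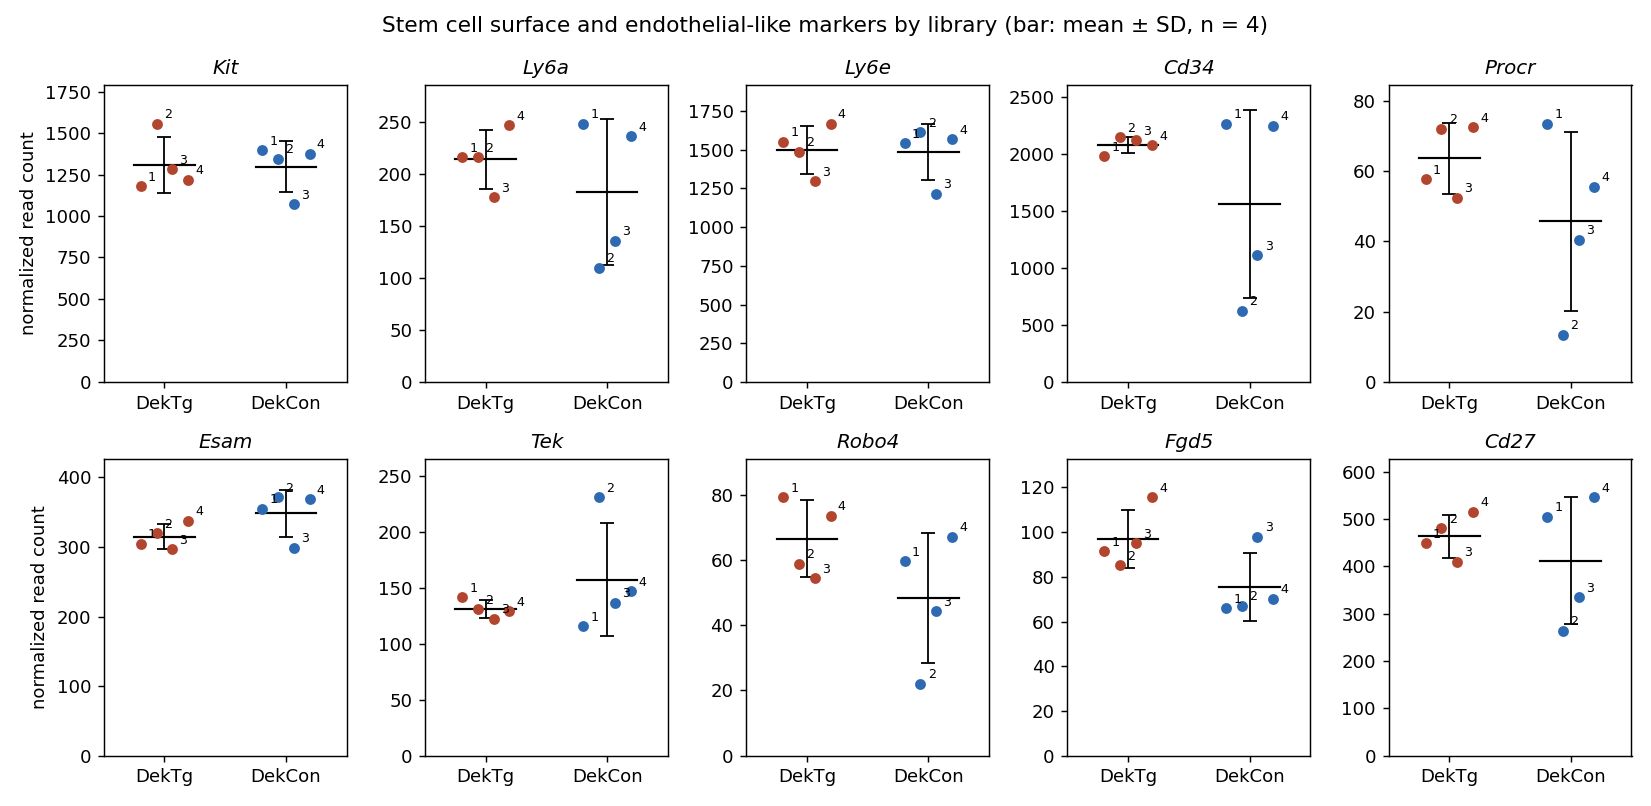
Normalized read counts (vertical axes, from 0) of the 10 markers in DekTg (left, red) and DekCon (right, blue) libraries, with library numbers beside the points and bars for mean ± SD of 4 libraries. The 4 DekTg values of Cd34 lie between 1980 and 2144, while DekCon libraries 2 and 3 lie at 624 and 1109 and the other DekCon libraries at 2265 and 2249.

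Kit and Ly6a mark the sort gate itself, and neither passed the test. Kit encodes the receptor tyrosine kinase for stem cell factor and lies on chromosome 5 from 75574916 to 75656722, plus strand (GRCm38, the build named mm10 in the submitters' notes). It had 1181, 1557, 1281 and 1219 normalized reads in DekTg libraries 1 to 4, against 1396, 1346, 1072 and 1377 in DekCon libraries 1 to 4. The 2 extremes were DekTg library 2 and DekCon library 3, and the other 6 libraries lay between them in both groups. Kit averaged 1309 ± 170 in DekTg and 1298 ± 152 in DekCon (SD, n = 4 each), a log2 fold change of 0.01 (limma adjusted p = 0.990, SE 0.13), or 0.03 without DekCon library 2. The 95% interval of the fold ran from 0.833 to 1.22. KIT protein is part of the sort gate that both groups passed.

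Ly6a, the gene of the GPI-anchored gate antigen Sca-1, lies on chromosome 15 from 74994877 to 74998031, minus strand. It had 216, 216, 178 and 247 normalized reads in DekTg, against 248, 110, 136 and 236 in DekCon. DekCon libraries 2 and 3 lay below all 4 DekTg libraries, while DekCon libraries 1 and 4 lay near the DekTg maximum. The means were 214 ± 28.3 in DekTg and 183 ± 69.9 in DekCon (SD, n = 4 each), with a log2 fold change of 0.30 (limma adjusted p = 0.802, SE 0.22). Without DekCon library 2 the log2 fold change was 0.09. Of the 50-base words in its longest transcript, 10.04% also occur in transcripts of Ly6c1, Ly6c2, Ly6i or I830127L07Rik. A part of its reads may thus be shared with these genes.

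Ly6e, a GPI-anchored relative that interferon induces, lies 35.0 kb from Ly6a on chromosome 15, from 74955051 to 74959905, plus strand. Its DekTg libraries had 1551, 1488, 1297 and 1668 normalized reads, against 1540, 1611, 1216 and 1568 in its DekCon libraries. The lowest value of each group was that of library 3, and the ranges overlapped over most of their width. With means of 1501 ± 155 in DekTg and 1484 ± 181 in DekCon (SD, n = 4 each), the log2 fold change was 0.02 (limma adjusted p = 0.985, SE 0.13), or 0.06 without DekCon library 2. Among 18 tested relatives of the Ly6 family, 0 passed in limma, edgeR or DESeq2 and 1 had an unadjusted p under 0.05. That was Ly6d, a marker of early lymphoid progenitors, at 25.8 ± 5.24 in DekTg and 13.9 ± 9.87 in DekCon (log2 fold change 1.16, limma adjusted p = 0.711). Its log2 fold change without DekCon library 2 was 0.63. Of 12 interferon-stimulated genes 0 passed and 2 had an unadjusted p under 0.05. Ifit3, an interferon-induced antiviral gene, had 33.0, 46.8, 24.3 and 50.4 in DekTg, against 16.5, 14.4, 16.0 and 23.2 in DekCon. Its groups did not overlap (log2 fold change 1.06, limma adjusted p = 0.639). Ifit2 was not among the 12, and most of its values are not whole reads. Those were 173, 165 and 168 in DekTg libraries 1, 3 and 4, against 19.9, 13.6, 13.6 and 14.2 in DekCon libraries 1 to 4. That difference is not taken as a measured one.

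The 2 SLAM genes of the gate were read beside these. Slamf1, which encodes CD150, had 191, 211, 213 and 190.0 normalized reads in DekTg, against 300.4, 264, 278 and 228 in DekCon. Every DekTg library lay below every DekCon library, and the log2 fold change was -0.40 (limma adjusted p = 0.711, SE 0.13). Cd48, whose protein the gate excludes, was nonetheless read in all libraries, at 174 to 230.0 in DekTg and 128 to 259 in DekCon (log2 fold change 0.14, limma adjusted p = 0.903, and -0.04 without DekCon library 2). Of 16 genes that grade stem cells by surface protein, Slamf1 and Cd48 among them, 0 passed in limma, edgeR or DESeq2, 7 had an unadjusted p under 0.05, 8 lay above 0 and 8 below. With DekCon library 2 left out, 4 lay above 0 and 12 below. Cd81, a tetraspanin, had the smallest p of the list, with 714 ± 55.9 in DekTg and 959 ± 137 in DekCon (log2 fold change -0.42, limma adjusted p = 0.707). Its groups did not overlap.

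Of 17 genes for the KIT ligand and for KIT signalling, 0 passed in limma, edgeR or DESeq2, 3 had an unadjusted p under 0.05, and 5 lay above 0. Their median log2 fold change was -0.16. The phosphatase gene Ptpn11 had the smallest p, with 120 ± 13.4 in DekTg and 164 ± 39.1 in DekCon (log2 fold change -0.42, limma adjusted p = 0.711), or -0.28 without DekCon library 2. The ligand gene Kitl was low in these cells, at 21.3 to 38.4 normalized reads in DekTg and 21.6 to 35.4 in DekCon.

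Of the 10 markers, Cd34 showed the widest gap in spread between the groups. It encodes a sialomucin that carries ligands for selectins and lies on chromosome 1 from 194938819 to 194961279, plus strand. The 4 DekTg libraries had 1980, 2144, 2118 and 2076 normalized reads, against 2265, 624, 1109 and 2249 in the 4 DekCon libraries. DekTg values kept within a factor of 1.08 of each other, whereas DekCon libraries 1 and 4 lay above all DekTg values and DekCon libraries 2 and 3 lay far below them. The coefficient of variation was 3.48% in DekTg and 53.0% in DekCon. The means of 2079 ± 72.3 in DekTg and 1562 ± 827 in DekCon (SD, n = 4 each) gave a log2 fold change of 0.60 (limma adjusted p = 0.717, SE 0.29). The 95% interval of the fold, 0.991 to 2.32, holds a 2-fold difference as well as none. Without DekCon library 2 the log2 fold change was 0.22. The antisense gene Gm16897 overlaps 2.03% of the exon bases of Cd34, and the strand setting of the counting is not given in the sources used here. Of the 50-base words in the longest Cd34 transcript, 1.86% also occur in transcripts of other genes.

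Of 6 genes that encode CD34 relatives or its partners, 0 passed in limma, edgeR or DESeq2 and 0 had an unadjusted p under 0.05. Selp, the gene of P-selectin, had the smallest p, with 418 ± 66.6 in DekTg and 489 ± 39.5 in DekCon (log2 fold change -0.23, limma adjusted p = 0.755), and -0.12 without DekTg library 3.

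Cd27 encodes a receptor of the tumor necrosis factor receptor family whose ligand is CD70, and lies on chromosome 6 from 125232622 to 125237010, minus strand. Its values were 449, 480, 410 and 516 in DekTg, against 505, 264, 335 and 546 in DekCon. As for Cd34, DekCon libraries 2 and 3 were below every DekTg library, while DekCon library 4 was the highest of the 8. Means were 464 ± 45.1 in DekTg and 412 ± 135 in DekCon (SD, n = 4 each), and the log2 fold change was 0.23 (limma adjusted p = 0.826, SE 0.19), or 0.03 without DekCon library 2. The ligand gene Cd70 was near 0, at 0 to 4.20 in DekTg and 0 to 5.65 in DekCon. Among 6 genes of CD70, of the TRAF adaptors and of other CD27 partners, 0 passed in limma, edgeR or DESeq2 and 3 had an unadjusted p under 0.05. Siva1, which encodes a protein that binds CD27, had the smallest p, with 133 ± 9.96 in DekTg and 192 ± 39.7 in DekCon and no overlap between the groups (log2 fold change -0.50, limma adjusted p = 0.707).

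Procr, Tek and Robo4 encode receptors shared with endothelium. Procr encodes EPCR, which presents protein C to the complex of thrombin and thrombomodulin, and lies on chromosome 2 from 155751117 to 155755471, plus strand. It had 57.7, 72.1, 52.4 and 72.4 normalized reads in DekTg, against 73.5, 13.4, 40.5 and 55.6 in DekCon. The value in DekCon library 2 rests on 14 reads, and is 5.49-fold below that of DekCon library 1, the highest of the 8. Procr averaged 63.7 ± 10.2 in DekTg and 45.8 ± 25.4 in DekCon (SD, n = 4 each), with a log2 fold change of 0.68 (limma adjusted p = 0.738, SE 0.36). Without DekCon library 2 this was 0.20.

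Among 8 genes of the protein C and thrombin receptor system, 0 passed in limma, edgeR or DESeq2 and 2 had an unadjusted p under 0.05. Pros1, the gene of the cofactor protein S, had the smallest p, with 72.6 ± 13.5 in DekTg and 122 ± 54.7 in DekCon (log2 fold change -0.66, limma adjusted p = 0.711), or -0.40 without DekCon library 2. The thrombin receptor gene F2r went the other way from Procr in DekCon library 2, at 1837, against 404 to 549 in DekTg and 494 to 647 in the other DekCon libraries. F2r was named after its values had been seen.

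Tek encodes TIE2, the receptor tyrosine kinase for angiopoietins, and lies on chromosome 4 from 94739289 to 94874976, plus strand. DekTg libraries held 142, 131, 122 and 129 normalized reads, against 115, 231, 137 and 147 in DekCon libraries. DekCon library 2 was the highest of the 8 and DekCon library 1 the lowest, with the DekTg libraries between them. The means were 131 ± 8.07 in DekTg and 157 ± 50.6 in DekCon (SD, n = 4 each), for a log2 fold change of -0.21 (limma adjusted p = 0.827, SE 0.18). Without DekCon library 2 it was -0.02.

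Of 6 genes of the angiopoietin and TIE system, 0 passed in limma, edgeR or DESeq2 and 1 had an unadjusted p under 0.05. That was the ligand gene Angpt1, which stem cells express themselves, at 599, 745, 644 and 629 in DekTg, against 810, 974, 728 and 759 in DekCon (log2 fold change -0.32, limma adjusted p = 0.711). Tie1, the receptor gene most related to Tek, had 138, 70.9, 95.1 and 111 in DekTg, against 113, 169, 126 and 131 in DekCon (log2 fold change -0.40, limma adjusted p = 0.717), and was again highest in DekCon library 2.

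Robo4, a roundabout receptor known for guarding vessel integrity, lies on chromosome 9 from 37401897 to 37415115, plus strand. It had 79.1, 58.9, 54.3 and 73.5 normalized reads in DekTg, against 59.6, 22.0, 44.3 and 67.1 in DekCon. DekCon libraries 2 and 3 lay below all DekTg libraries. With 66.5 ± 11.8 in DekTg and 48.3 ± 19.9 in DekCon (SD, n = 4 each), the log2 fold change was 0.55 (limma adjusted p = 0.727, SE 0.28), and 0.22 without DekCon library 2. In the list of 10 SLIT, ROBO and partner genes 0 passed in limma, edgeR or DESeq2, and 1 had an unadjusted p under 0.05. That was Robo3, which neighbours Robo4, at 35.4 ± 10.9 in DekTg and 76.4 ± 45.6 in DekCon (log2 fold change -0.93, limma adjusted p = 0.711). Its highest value, 136, was in DekCon library 2, where Robo4 was lowest, and without that library its log2 fold change was -0.59. Both related receptors Robo1 (228 ± 28.7 in DekTg, 218 ± 37.9 in DekCon) and Robo2 (300.3 ± 53.8 in DekTg, 292 ± 42.7 in DekCon) were read as well.

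Esam encodes an immunoglobulin-type adhesion molecule of cell junctions. It lies 113 kb from Robo4 on chromosome 9, from 37528078 to 37538319, plus strand, with the coding genes Robo3 and Msantd2 between them. Its values were 305, 320, 297 and 338 in DekTg, against 355, 371, 299 and 369 in DekCon. DekCon libraries 1, 2 and 4 lay above all DekTg libraries, and DekCon library 3 lay near the bottom of the DekTg range. Esam averaged 315 ± 18.1 in DekTg and 348 ± 34.0 in DekCon (SD, n = 4 each), a log2 fold change of -0.14 (limma adjusted p = 0.831, SE 0.12), or -0.11 without DekCon library 2. Of 6 related junction genes 0 passed in limma, edgeR or DESeq2 and 1 had an unadjusted p under 0.05. Cxadr, the gene of the coxsackievirus and adenovirus receptor, had 56.9, 55.3, 64.0 and 58.8 in DekTg, against 34.2, 41.1, 39.6 and 34.7 in DekCon. All 4 DekTg libraries of Cxadr lay above all 4 DekCon libraries (log2 fold change 0.64, limma adjusted p = 0.654).

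Fgd5 encodes an exchange factor that loads the small GTPase CDC42 with GTP, and its expression marks stem cells in reporter mice. It lies on chromosome 6 from 91978878 to 92076004, plus strand. The values were 91.5, 85.3, 95.1 and 115 in DekTg, against 65.9, 67.0, 98.0 and 70.2 in DekCon. DekCon libraries 1, 2 and 4 were below every DekTg library, and DekCon library 3 was above 3 of the 4 DekTg libraries. Fgd5 averaged 96.8 ± 13.1 in DekTg and 75.3 ± 15.3 in DekCon (SD, n = 4 each). It had the smallest p of the 10 markers, with a log2 fold change of 0.37 (limma adjusted p = 0.711, SE 0.17). An exact permutation test, two-sided, gave p = 0.114, where 0.0286 is the smallest value that 4 against 4 libraries can give. Without DekCon library 2 the log2 fold change was 0.32, and over all alternatives it ran from 0.28 to 0.50. Of 6 genes of the FGD family and CDC42, 0 passed in limma, edgeR or DESeq2 and 1 had an unadjusted p under 0.05, namely Fgd1, at 8.89 ± 4.34 in DekTg and 15.3 ± 3.44 in DekCon (log2 fold change -0.80, limma adjusted p = 0.711).

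**Figure D2:**
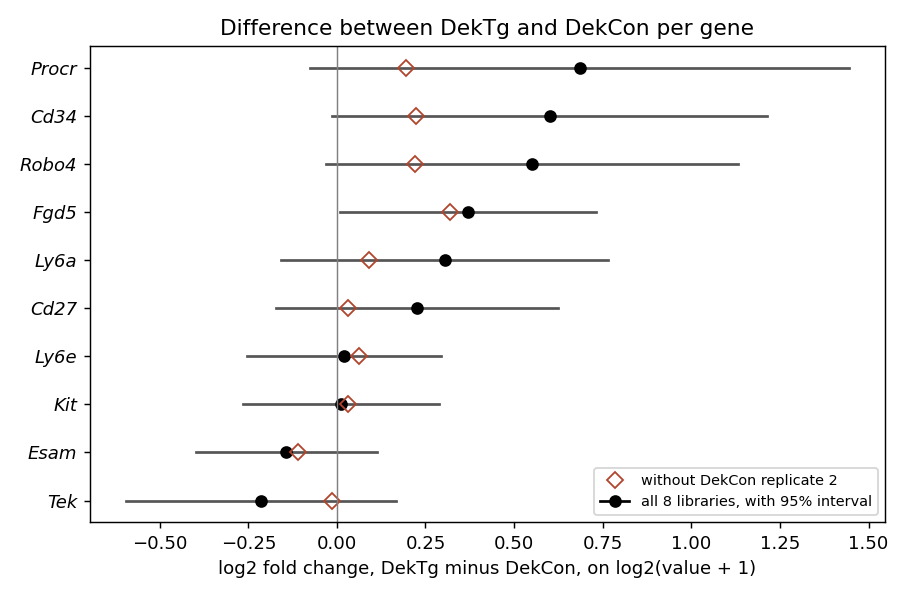
Log2 fold change, DekTg minus DekCon, of each marker with its 95% interval from limma on all 8 libraries (black), and the estimate without DekCon replicate 2 (open red diamonds). Only the interval of Fgd5 lies above 0 in full, and the estimates of Procr, Cd34 and Robo4 move to between 0.20 and 0.22 without that library.

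Across libraries, the markers split by how they stood in DekCon library 2. It held the lowest value of the 8 for Cd34, Procr, Robo4, Ly6a and Cd27 and the highest for Esam and Tek, so that it was at an extreme for 7 of the 10. It was at an extreme for 46.0% of the 11808 tested genes with a mean of at least 50. DekCon library 1 was at an extreme for 5 of the 10 markers and for 22.0% of those genes. Relative to the mean of the other DekCon libraries on the log2(value + 1) scale, DekCon library 2 stood 1.96 lower for Procr, 1.51 lower for Cd34, 1.31 lower for Robo4, 0.85 lower for Ly6a and 0.77 lower for Cd27. For Tek it stood 0.80 higher, for Kit, Ly6e and Esam it stood 0.08 to 0.17 higher, and for Fgd5 it stood 0.20 lower.

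Ratios within a library show the same contrast free of scaling. Cd34 reads per Kit read came to 1.68, 1.38, 1.65 and 1.70 in DekTg, against 1.62, 0.463, 1.03 and 1.63 in DekCon. Tek reads per Cd34 read were 0.0716, 0.0611, 0.0577 and 0.0622 in DekTg, against 0.0509, 0.370, 0.123 and 0.0652 in DekCon. DekCon libraries 2 and 3 stood outside the range of the other 6 libraries in both ratios. In bulk libraries, fewer cells of a type and less RNA per cell cannot be told apart.

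The SD of the log2 values was larger in DekCon than in DekTg for 10 of the 10 markers. For Kit the 2 were almost equal, at 0.1786 in DekTg and 0.1794 in DekCon. On the scale of normalized reads the SD of Kit was larger in DekTg (170 against 152). Among the 11808 genes with a mean of at least 50 it was larger in DekCon for 51.0%. The median SD over the markers was 0.17 in DekTg and 0.46 in DekCon, beside 0.20 in DekTg and 0.21 in DekCon over those genes. Without DekCon library 2 the DekCon SD was still above that of DekTg for each marker, for example 0.59 for Cd34, with 0.05 in DekTg. The markers were chosen with results of these libraries known, and the difference in spread was not tested.

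**Figure D3:**
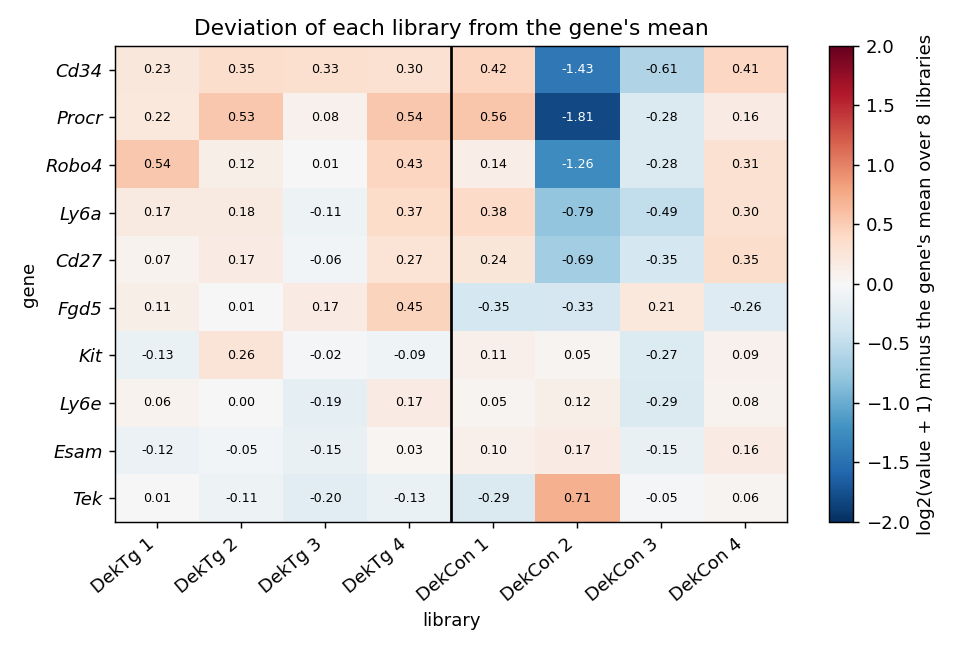
Deviation of each library (columns, DekTg left and DekCon right of the line) from the gene's mean over the 8 libraries, on the log2(value + 1) scale, with the value in each cell. DekCon replicate 2 stands at -1.43 for Cd34, -1.81 for Procr and -1.26 for Robo4, and at 0.71 for Tek.

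Likeness between genes was measured as the mean absolute difference of their centred log2 values over the 8 libraries, with smaller values for more alike genes. Among the 45 pairs of markers the median was 0.327. The most alike pair was Ly6a with Cd27, at 0.0845, and the least alike was Procr with Tek, at 0.689. Over the 10243 other genes with a mean of at least 50, leaving out predicted genes (names of Gm and a number, or ending in Rik), Cd34 was most like Il10ra (0.0557), Procr most like Appl2 (0.111), Robo4 most like Ier3 (0.0797), Cd27 most like Cd1d1 (0.0690) and Tek most like Serpinb6b (0.0575). Il10ra, for example, had 98.1, 97.3, 95.1 and 104 in DekTg, against 106, 27.8, 49.9 and 98.0 in DekCon, which is the outline of Cd34. Of the others, Kit was nearest to Slc30a7 (0.0321), Ly6e to Rnf44 (0.0501), Esam to Aar2 (0.0342) and Fgd5 to Sphkap (0.0959). Another gene was nearest to Ly6e with a pseudocount of 0.1 and to Esam with a pseudocount of 10, a check added after the data had been seen.

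Because Cd34, Procr, Robo4 and Cd27 were low together in DekCon library 2 and Tek was high there, 140 bases of each promoter are shown from RefSeq (GRCm38.p6), which held promoters for 7 of the 10 markers, those other than Ly6a, Ly6e and Esam. Each stretch ends directly upstream of the GENCODE or the RefSeq start, whichever lies farther upstream. That is the GENCODE start for Cd34, Procr and Robo4 (2, 100 and 75 bases upstream of the RefSeq start), the RefSeq start for Cd27, and the start that both share for Tek. Each is read 5′ to 3′ on the strand of its gene, and capitals mark matches on either strand to any of 3 short words. The word GGAA is the core of sites for ETS factors, the word GATAA belongs to sites for factors of the GATA family, and the word CAGCTG is an E-box. Each word was searched on its own, so matches of different words could overlap.
Cd34, chr1:194938679-194938818, plus strand: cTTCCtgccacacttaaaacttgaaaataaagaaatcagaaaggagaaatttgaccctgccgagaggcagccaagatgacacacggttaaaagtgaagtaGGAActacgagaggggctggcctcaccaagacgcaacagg
Procr, chr2:155750977-155751116, plus strand: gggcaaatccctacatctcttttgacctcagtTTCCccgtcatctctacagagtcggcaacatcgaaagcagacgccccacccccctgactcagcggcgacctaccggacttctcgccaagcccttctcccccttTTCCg
Robo4, chr9:37401757-37401896, plus strand: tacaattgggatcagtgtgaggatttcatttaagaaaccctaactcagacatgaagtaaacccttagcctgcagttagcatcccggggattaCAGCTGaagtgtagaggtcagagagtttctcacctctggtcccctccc
Cd27, chr6:125237028-125237167, minus strand: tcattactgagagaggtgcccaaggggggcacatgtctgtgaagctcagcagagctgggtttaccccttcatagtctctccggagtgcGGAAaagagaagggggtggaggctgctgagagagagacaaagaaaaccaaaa
Tek, chr4:94739149-94739288, plus strand: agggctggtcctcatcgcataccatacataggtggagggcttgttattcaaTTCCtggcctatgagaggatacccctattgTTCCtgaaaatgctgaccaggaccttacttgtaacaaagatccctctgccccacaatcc
In the full 250 bases upstream of the RefSeq start, GGAA occurred in all 7, with 5 matches for Cd34, 3 for Procr, 3 for Robo4, 2 for Cd27, 2 for Tek, 2 for Fgd5 and 1 for Kit. That word occurs in 93.4% of the 32851 windows of the same length. CAGCTG occurred for Procr and Robo4, and in 13.0% of all windows. GATAA occurred for 0 of the 7, and in 22.6% of all windows. These matches describe letters and not bound sites.

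Levels of different genes were compared per kilobase of merged exons. In DekTg the order of mean normalized reads per kilobase was Ly6e at 397 ± 41.0, Cd34 at 285 ± 9.92, Cd27 at 199 ± 19.4, Ly6a at 178 ± 23.5, Kit at 147 ± 19.1, Esam at 109.8 ± 6.30, Procr at 31.3 ± 5.01, Tek at 27.8 ± 1.71, Fgd5 at 15.4 ± 2.08 and Robo4 at 12.5 ± 2.22 (SD, n = 4). The ranges of 4 neighbouring pairs overlapped, namely Cd27 with Ly6a, Ly6a with Kit, Procr with Tek, and Fgd5 with Robo4. In DekCon the order was the same except that Tek (33.4 ± 10.7) came before Procr (22.5 ± 12.5). There only Ly6e (392 ± 47.9) was separate from Cd34 (214 ± 113), and Esam (122 ± 11.8) from Tek, while the other 7 neighbouring pairs overlapped. The receptors shared with endothelium and Fgd5 were thus the lowest of the 10 per length in both groups, and Esam stood above them. Per kilobase of the longest transcript instead, Cd34 (679 ± 23.6) came before Ly6e (658 ± 68.0) in DekTg, and Kit came before Ly6a in both groups.

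**Figure D4:**
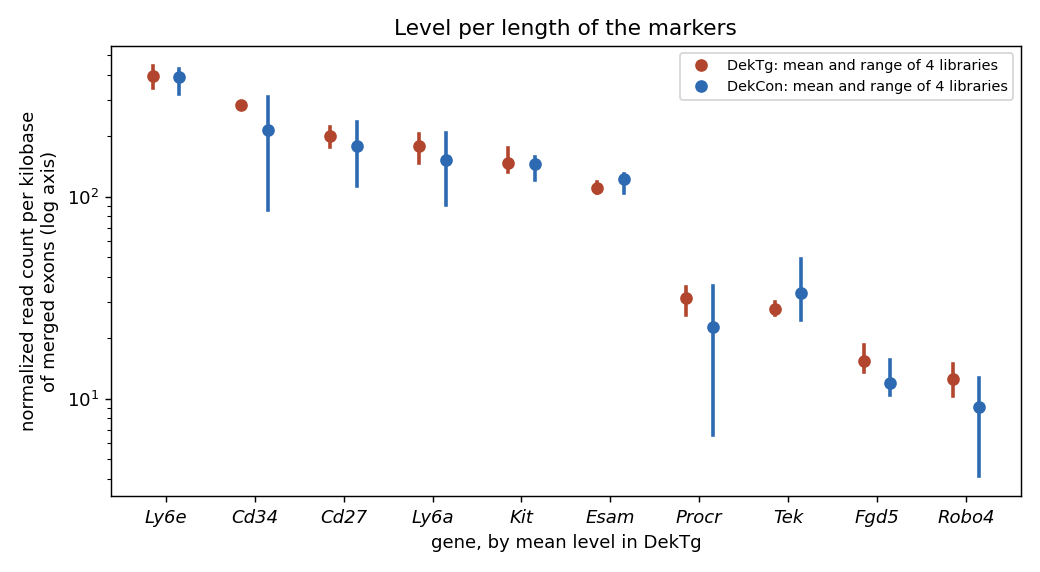
Mean level per kilobase of merged exons (log axis) of each marker in DekTg (red, left of each pair) and DekCon (blue), with lines for the range of 4 libraries and genes ordered by their DekTg mean. The DekCon lines of Cd34 and Procr are the longest, reaching down to 85.6 and 6.60 in DekCon replicate 2.

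Since several of the markers are endothelial genes too, the genes that define endothelial cells were read in the same libraries. Of 6 defining genes (Cdh5, Kdr, Flt4, Plvap, Cldn5, Stab2), 0 were at 0 in all libraries, and their sum was 201 to 306 in DekTg and 183 to 234 in DekCon, with 188 in DekCon library 2. The largest part of it was Kdr, at 162, 119, 155 and 133 in DekTg, against 153, 137, 124 and 146 in DekCon, while Cdh5, the gene of VE-cadherin, had 4.805 to 17.8 in DekTg and 10.03 to 15.3 in DekCon. Of the 6 defining genes, 5 lay above 0 and 1, Cdh5, below, at a median log2 fold change of 0.38. An unadjusted limma p under 0.05 was found for 2 of them, and 0 passed. Without DekCon library 2, 4 of the 6 lay above 0 and 2 below. None of the 21 genes of the wider endothelial list passed in limma, edgeR or DESeq2, and 5 had an unadjusted p under 0.05. Of the 21, 14 lay above 0 and 7 below, and without DekCon library 2 it was 11 above and 10 below. The median log2 fold change was 0.04. Plvap, of the diaphragms of fenestrated vessels, had 30.5, 15.6, 15.5 and 50.4 in DekTg, against 11.4, 8.61, 1.88 and 20.8 in DekCon (log2 fold change 1.47, limma adjusted p = 0.711), or 0.91 without DekCon library 3. The scavenger receptor gene Stab1 had 35.9 ± 11.5 in DekTg and 18.7 ± 7.15 in DekCon (log2 fold change 0.91, limma adjusted p = 0.711). Vwf, the gene of von Willebrand factor, which is in the megakaryocyte list as well, had 244 ± 61.6 in DekTg and 439 ± 267 in DekCon (log2 fold change -0.70, limma adjusted p = 0.711), with 812 in DekCon library 2. Whether endothelial RNA had a part in the marker levels was not tested.

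Megakaryocyte genes were high in DekCon library 2. All 9 genes of that list had their highest value of the 8 libraries there, and their sum was 2315 to 3826 in DekTg, against 10687 in DekCon library 2 and 3067 to 5493 in the other DekCon libraries. Itga2b, which encodes the platelet integrin subunit CD41, had 1080.5, 724, 1087 and 1137 in DekTg, against 1225, 3859, 1664 and 1240.3 in DekCon. None of the 9 passed in limma, edgeR or DESeq2, 7 had an unadjusted p under 0.05, and all 9 lay below 0, with DekCon library 2 and without it, at a median log2 fold change of -0.77 with it. The platelet glycoprotein gene Gp5 had the smallest p, at 123 ± 28.1 in DekTg and 306 ± 196 in DekCon (log2 fold change -1.13, limma adjusted p = 0.639), or -0.76 without DekCon library 2. The same library was low for Flt3, a receptor gene of multipotent progenitors, at 161, against 688 to 845 in DekTg and 385 to 847 in the other DekCon libraries. The part of DekCon library 2 in the marker differences was measured only by leaving the library out, and the part of megakaryocyte genes was not tested.

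Over all 20 lists, 188 of 194 genes were tested. Limma called 5 of them, all higher in DekTg: the globin genes Hba-a1, Hba-a2 and Hbb-bs, and the immunoglobulin genes Igkc and Jchain. Erythroid genes had 3 of 10 called higher, with a summed level of 545 to 716 in DekTg and 185 to 639 in DekCon. Genes of B and plasma cells had 2 of 10 called higher, with a sum of 4504 to 5315 in DekTg and 459 to 1221 in DekCon. For granulocyte, mast cell, T and NK cell and bone marrow stroma genes 0 passed in limma, edgeR or DESeq2, out of 10, 7, 10 and 7 tested, and 2, 1, 2 and 1 had an unadjusted p under 0.05. Granulocyte genes summed to 2395 to 5249 in DekTg libraries 1, 2 and 4, to 17043 in DekTg library 3, and to 4253 to 11296 in DekCon. Their gene of smallest p was Prtn3 (617 ± 67.8 in DekTg, 854 ± 76.2 in DekCon, limma adjusted p = 0.639). The smallest p of the other 3 lists belonged to Fcer1a (42.6 ± 4.71 in DekTg, 65.9 ± 14.9 in DekCon), Cd2 (6.55 ± 3.44 in DekTg, 1.33 ± 1.29 in DekCon) and Col3a1 (10.1 ± 2.59 in DekTg, 16.4 ± 2.41 in DekCon), each with a limma adjusted p of 0.711. Below 0 lay 9 of the 10 granulocyte genes, 4 of the 7 mast cell genes, 3 of the 10 T and NK cell genes and 1 of the 7 stroma genes, which was Col3a1, with a median log2 fold change of 0.27 over the stroma list.

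**Figure D5:**
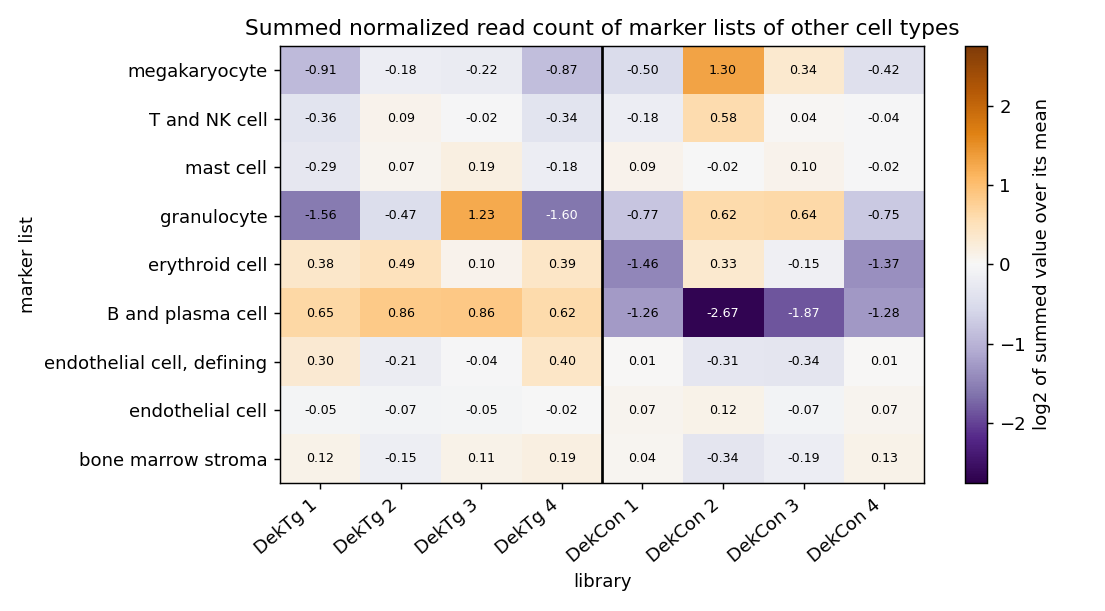
Summed normalized read count of each marker list of other cell types (rows) in each library (columns, DekTg left and DekCon right of the line), as log2 over the list's mean of the 8 libraries. The megakaryocyte sum of DekCon replicate 2 stands at 1.30, and the B and plasma cell sums are above 0 in all 4 DekTg libraries and below 0 in all 4 DekCon libraries.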

How the data were processed

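RNA was measured in 8 libraries, 4 DekTg and 4 DekCon. Per the labels' protocols, RNA was amplified by Geo-seq, and Bowtie 0.12.9, Cufflinks 2.1.1, HTSeq and DESeq2 were used with build mm10 per the submitters' processing notes, which name no role for each. The authors deposited a signal per gene and library under the name of FPKM, but 99.99% of the 417792 values are whole reads times 1 step per library (tolerance 0.001 reads), and the steps match DESeq2 size factors within 4.4e-05. The values were therefore read as size-factor-scaled reads, not scaled for length. The other 25 values lie in 6 genes, none a marker: Dek, Cdc20, Cdk1, Fos, Ifit2 and Csf2.

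Genes with a value of at least 1 in at least 4 libraries (37414) were fitted on log2(value + 1) with limma 3.58.1 under R 4.3.3 (trend option on, no covariates), by two-sided tests with Benjamini-Hochberg adjustment at 0.05. This scale understates changes of low genes. EdgeR 4.0.16 and DESeq2 1.42.0 were run on recovered reads, and exact permutation tests in scipy 1.17.1. In a simulation of 36348 genes in both groups, limma found 72% of the 2-fold changes put in. For 4-fold changes the share was 100%, and 9 further calls were wrong. These rates need not hold for markers whose libraries spread widely. In DekCon the SD of the log2 values ran from 0.15 (Esam) to 1.04 (Procr), with a median of 0.46 over the markers. That median was 0.21 over genes with a mean of at least 50. Reads were amplified and carry no molecular identifiers, so they are not separate molecules and counting error covers a part of the error only.

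The markers and lists were chosen with earlier results of these data known. The rule names all 10 markers, Dek, Slamf1, Cd48, the called genes of each list or its gene of smallest p (2 for endothelial cells), and the gene most alike each marker. Tie1, Kitl, Cd70, F2r, Itga2b, Vwf, Flt3, Kdr, Cdh5, Robo1, Robo2 and Ifit2 lie outside it, chosen with their values known. Cdc20, Cdk1, Fos and Csf2 are named only as holding values other than whole reads. Positions and exon lengths are from GENCODE M21 (GRCm38). In all, 25 alternatives were fitted: pseudocounts, filters, scalings, limma options, a block for the library number, libraries 1 and 4 averaged or as a term, count tests, and each library left out.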

Additional observations from a re-analysis of the deposited data

Results flagged for a closer look

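In 4 of 72 groups of 4 values examined, 1 library lay apart from the other 3 by a larger share of the group's range than Dixon's 95% critical value, and chance alone flags about 1 in 20 groups. Among the markers, DekCon library 3 was lowest of its group for Kit (gap over range 0.847) and highest of its group for Fgd5 (0.866). Among list genes, DekTg library 2 was highest of its group for the tetraspanin gene Cd81 (0.842) and for the alpha-globin gene Hba-a2 (0.898).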

How the results depend on the processing

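None of the 10 markers passed in any of the 25 alternatives, and leaving out a library moved their median log2 fold change to between 0.08 and 0.36. The sign of the log2 fold change turned for Kit with library weights (-0.052), without DekTg replicate 2 (-0.074) and without DekCon replicate 3 (-0.077), for Ly6e without DekTg replicate 4 (-0.033) and without DekCon replicate 3 (-0.073), and for Cd48 without DekCon replicate 2 (-0.041). Leaving out each library gave ranges of -0.077 to 0.059 for Kit, -0.073 to 0.088 for Ly6e and -0.041 to 0.29 for Cd48, and the cause was not tested. The other 8 markers kept their sign. Scaling each library to 1 total moved the median of all genes by 0.08, the largest shift of the 3 scalings.

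Against 13 genes called, 4 were called without limma's trend, 8 when the 6 genes with values other than whole reads were left out, and 13 to 21 with each library left out (21 without DekTg replicate 2). Without the trend 1 list gene passed in place of 5, and 8 passed with a term for libraries 1 and 4, including 2 granulocyte genes. Same-numbered libraries did not deviate together in every pair (correlations 0.038, 0.005, 0.040 and 0.154), and not every library correlated best with its own number. Between the groups, unlike numbers ran from -0.277 (DekTg library 4 with DekCon library 3) to 0.279 (DekTg library 2 with DekCon library 3). The labels do not say whether the numbers mark shared processing, and these correlations cannot settle it. With the replicate number as a block, 15 genes, 6 list genes (1 of them a megakaryocyte gene) and 0 markers passed. With the longest transcript in place of merged exons, 12 of 20 levels per kilobase moved by more than 1 SD, and 4 ranks changed in DekTg and 2 in DekCon. Depth limits Procr most, with 14 reads in DekCon library 2, and with 4 libraries a group a 2-fold difference can be missed. Dek has no value in the count tests and where the 6 genes were left out.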
